A study of Homo sapiens with 30 samples.

Results

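The collagen genes were taken as every entry of the RNA-seq table whose symbol reads COL, a number, A and a number, such as COL4A1. This rule found 44 of the 26255 entries. The rule used the symbol alone and no measured value, but it was set with earlier results of these data known. Their RNA was measured in 4 lines of RWPE1, an immortalized line of normal prostate epithelium, with 3 libraries per line. All 4 lines carried both retroviral backbones. RWPE1-Vector carried them empty, RWPE1-ERG expressed FLAG-tagged ERG from one, RWPE1-mAKT expressed myristoylated, constitutively active AKT from the other, and RWPE1-ERG+mAKT expressed both. H3K27me3 ChIP-seq came from lines with the empty vector, ERG or ERG S96E, a phosphomimetic form of ERG, and ERK2 ChIP-seq came from the lines with the empty vector or ERG. ERG ChIP-seq came from RWPE1-ERG+mAKT cells and from VCaP cells, a prostate cancer line with an ERG fusion, given DMSO on days 1, 3 and 6. ATAC-seq, which maps open chromatin, was used from 3 lines (RWPE1-ERG, RWPE1-mAKT, RWPE1-ERG+mAKT), and that of RWPE1-Vector was not analysed here. The ChIP-seq lines for H3K27me3 and ERK2 carried one backbone only, and all samples were cells in culture. The study asked how the ERK and AKT pathways change what ERG does in these cells.

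Collagens are secreted or membrane-bound proteins whose chains wind in threes into a triple helix. Fibrillar collagens build the fibrils of stroma and are made mostly by fibroblasts, while epithelial cells make the type IV collagens of the basement membrane on which they sit. Basal epithelial cells also make type XVII collagen, a transmembrane component of the hemidesmosome, and type VII collagen, which forms the anchoring fibrils below the basement membrane. H3K27me3 is the histone mark that the Polycomb complex PRC2 sets at silent genes, often over promoters rich in CG pairs.

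RNA levels are in FPKM, fragments scaled to transcript length and to the mapped reads, which can be set side by side between genes. The table gives 1 FPKM per line, pooled by the authors over the 3 libraries, and no value per library. The spread between libraries could therefore not be computed here, no test was run on RNA levels, and each ratio below is a description. The number of reads per library is unknown as well. Ratios were taken after adding 0.1 FPKM to each value, and genes with FPKM of at least 1 in any line were compared. In the labels' check, ERG stood at 0.264 FPKM in RWPE1-Vector, 357.6 in RWPE1-ERG, 0.435 in RWPE1-mAKT and 328.0 in RWPE1-ERG+mAKT. AKT1 stood at 58.7, 64.2, 156.3 and 281.0 FPKM in the same order. The lines expressed epithelial keratins, while the luminal marker KLK3 was listed at 0 in all 4 lines. Of 8 fibroblast markers, 5 were below 0.1 FPKM in all 4 lines, PDGFRA and POSTN were listed at 0 throughout, and the summed level of the 8 ran from 1.25 to 2.30 FPKM. Of 5 endothelial markers, 4 were below 0.1 FPKM in all 4 lines.

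Of the 44 collagen genes, 15 reached 1 FPKM in at least 1 line (34.1%, against 48.3% of all entries). Another 10 lay between 0.1 and 1 FPKM in their highest line, and 19 stayed below 0.1 FPKM in all 4 lines (43.2%, against 39.0% of all entries). The 15 came from every class except the 2 genes grouped as other, COL26A1 and COL28A1. They comprised 4 of 6 type IV genes, 4 of 11 fibrillar genes and 2 of 10 FACIT genes, whose products sit on the surface of fibrils or in membrane zones. The multiplexins, transmembrane collagens, beaded filament genes, short-chain collagens and the anchoring fibril collagen gave 1 member each. Summed over the 44 genes, collagen FPKM was 372.0 in RWPE1-Vector, 284.2 in RWPE1-ERG, 312.1 in RWPE1-mAKT and 247.1 in RWPE1-ERG+mAKT. COL17A1 alone made up 56.3%, 27.9%, 54.4% and 31.1% of those sums.

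**Figure D1:**
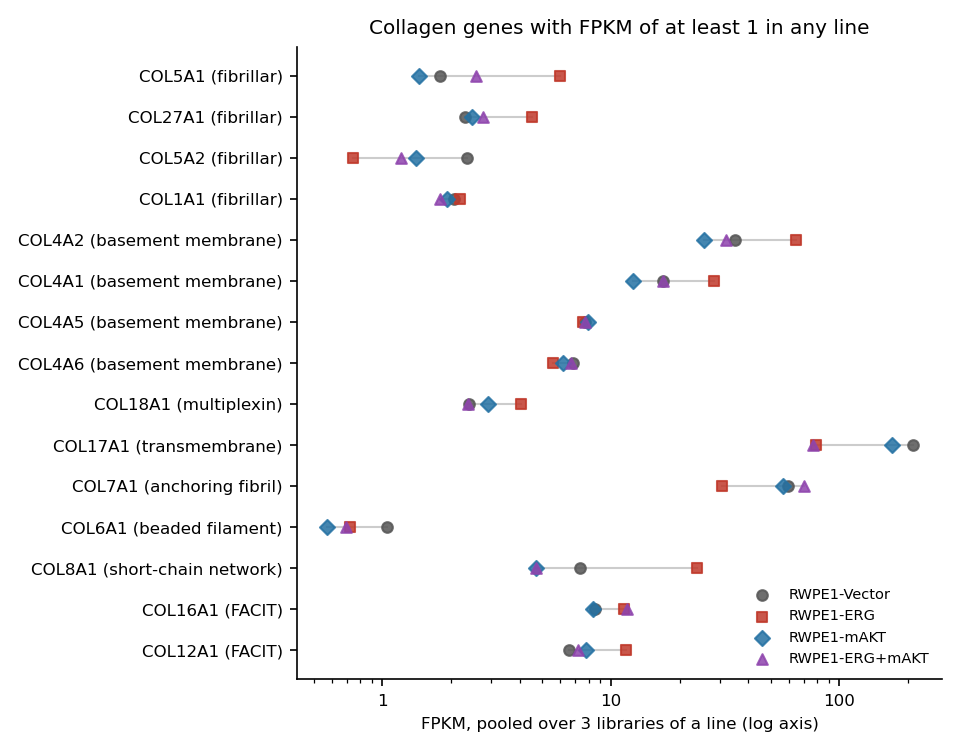
FPKM of the 15 collagen genes with at least 1 FPKM in any line, on a log axis, with 1 marker per line (1 value pooled over 3 libraries, so no error bar) and the class in brackets. COL17A1 is the highest gene in each line, and COL4A5 differs least between lines. RWPE1-ERG holds the highest value of 8 of the 15. That count was not taken over all genes, so whether it is particular to collagen genes cannot be told.

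COL17A1 was the most abundant collagen gene in each line, with COL7A1 next in every line but RWPE1-ERG, where COL4A2 was higher. COL17A1, the hemidesmosomal collagen, measured 209.5 FPKM in RWPE1-Vector, 79.4 in RWPE1-ERG, 169.8 in RWPE1-mAKT and 76.8 in RWPE1-ERG+mAKT. Both lines with ERG lay below both lines without it. The level with ERG was 2.64-fold lower without mAKT and 2.21-fold lower with it. COL7A1, the anchoring fibril collagen, measured 59.6 FPKM in RWPE1-Vector, 30.6 in RWPE1-ERG, 56.7 in RWPE1-mAKT and 69.9 in RWPE1-ERG+mAKT. Only RWPE1-ERG stood low for COL7A1, 1.95-fold below RWPE1-Vector, and RWPE1-ERG+mAKT stood 2.28-fold above RWPE1-ERG. The ratio of COL17A1 to COL7A1 FPKM was 3.52, 2.60, 3.00 and 1.10 in the 4 lines in that order.

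Basal epithelial markers also differed between the lines, in different ways. The sum of KRT5, KRT14, TP63, ITGB4 and ITGA6 was 6602 FPKM in RWPE1-Vector, 2245 in RWPE1-ERG, 6662 in RWPE1-mAKT and 4995 in RWPE1-ERG+mAKT. ITGB4 and ITGA6, the integrin pair of the hemidesmosome to which type XVII collagen binds, were 1.82-fold and 1.73-fold lower in RWPE1-ERG+mAKT than in RWPE1-mAKT, beside the 2.21-fold of COL17A1. KRT5 measured 3126, 1170, 3642 and 3519 FPKM in the 4 lines, and TP63 measured 36.3, 21.3, 39.2 and 38.0, both low in RWPE1-ERG only, as COL7A1 was. KRT14 measured 2936, 699.5, 2527 and 1185 FPKM, low in both lines with ERG, as COL17A1 was. ITGB4, at 378.7, 283.0, 338.6 and 186.3 FPKM, and ITGA6, at 125.0, 70.9, 116.3 and 67.2, also lay lower in both lines with ERG. The sum of the luminal list, nearly all KRT8 and KRT18, was 1441, 3614, 1659 and 1880 FPKM. The part of these differences in the collagen values was not tested, and in bulk RNA fewer cells of a type and less RNA per cell cannot be told apart.

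The type IV collagens, which form the network of the basement membrane, are laid out as 3 head-to-head pairs in the genome. COL4A1 and COL4A2 start 126 bases apart on chromosome 13, and their chains assemble together. COL4A2 measured 35.1 FPKM in RWPE1-Vector, 64.6 in RWPE1-ERG, 25.5 in RWPE1-mAKT and 31.9 in RWPE1-ERG+mAKT. COL4A1 measured 17.0, 28.3, 12.5 and 16.9 FPKM. RWPE1-ERG was the high line and RWPE1-mAKT the low line for both, and the ratio of COL4A2 to COL4A1 stayed between 1.89 and 2.28. COL4A5 and COL4A6, whose starts lie 1415 bases apart on the X chromosome, were flatter. COL4A5 measured 7.75, 7.58, 7.92 and 7.69 FPKM, and COL4A6 measured 6.83, 5.58, 6.15 and 6.66. COL4A3 and COL4A4, which start 418 bases apart and serve kidney and lung basement membranes, stayed at or below 0.012 and 0.0421 FPKM. Each pair was thus both on or both off.

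The fibrillar genes were low, and the type I pair was expressed in part. COL1A1 measured 2.05, 2.18, 1.93 and 1.78 FPKM across the 4 lines, in the order used above, while COL1A2, which encodes its partner chain in type I collagen, reached at most 0.0111. COL3A1, the type III collagen of stroma, was listed at 0 in all 4 lines. COL5A1, a chain of the type V collagen that regulates fibril diameter, measured 1.79, 5.98, 1.44 and 2.56 FPKM. COL5A2, the other common chain of type V collagen, measured 2.35, 0.747, 1.41 and 1.20 FPKM. COL5A1 was highest and COL5A2 lowest in the same line, RWPE1-ERG, and the ratio of COL5A1 to COL5A2 was 0.760, 8.00, 1.02 and 2.13 across the lines. COL27A1, a fibrillar collagen of cartilage, measured 2.31, 4.52, 2.46 and 2.77 FPKM. COL6A1, a chain of the beaded filament collagen, measured 1.04, 0.720, 0.571 and 0.695 FPKM, while its partner COL6A2 reached at most 0.212 and COL6A3 at most 0.0181.

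COL8A1, a short-chain collagen of the network type that endothelium and injured vessels are known for, differed most between lines. It measured 7.33 FPKM in RWPE1-Vector, 23.9 in RWPE1-ERG, 4.72 in RWPE1-mAKT and 4.70 in RWPE1-ERG+mAKT, a range of 5.09-fold with RWPE1-ERG alone at the top. The table's locus for COL8A1 spans 624.3 kb, against 160.8 kb for the gene in GENCODE, so it runs over neighbouring genes. COL12A1, a FACIT collagen, measured 6.54, 11.7, 7.75 and 7.17 FPKM. COL16A1, another FACIT collagen, measured 8.54, 11.4, 8.39 and 11.7 FPKM, higher in both lines with ERG. COL18A1, the basement membrane multiplexin from which endostatin is cut, measured 2.39, 4.06, 2.89 and 2.38 FPKM, with RWPE1-ERG again the high line.

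Against RWPE1-Vector, RWPE1-ERG held 4 of the 15 expressed collagen genes past 2-fold, where 6.83% of the 12670 genes compared were past it, 4.95% higher and 1.88% lower. COL8A1 was higher by 1.69 and COL5A1 by 1.69 on the log2 scale. COL5A2 was lower at -1.53 and COL17A1 at -1.40 on the same scale. COL7A1 at -0.96, COL27A1 at 0.94, COL4A2 at 0.88, COL12A1 at 0.83, COL18A1 at 0.74 and COL4A1 at 0.73 stayed within 2-fold. Of the 15, 9 had a log2 ratio above 0, beside 6093 of the 12670 genes compared. The median of the 15 was 0.41, beside -0.01 over all genes compared.

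RWPE1-mAKT against RWPE1-Vector put 0 of the 15 past 2-fold, with 2.87% of all genes past it, 1.63% higher and 1.25% lower. The members' median log2 ratio was -0.15, beside 0.02 over all genes. Below 0 lay 11 of 15, beside 5675 of the 12670 genes. The lowest were COL6A1 at -0.77, COL5A2 at -0.70 and COL8A1 at -0.63.

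RWPE1-ERG+mAKT against RWPE1-ERG put 4 of the 15 past 2-fold, with 6.64% of all genes past it, 2.98% higher and 3.65% lower. COL8A1 was lower at -2.32, COL5A1 at -1.19 and COL4A2 at -1.01 on the log2 scale, and COL7A1 was higher at 1.19. COL4A2 passed narrowly, and its ratio came within 2-fold once ratios were centred on the median of all genes. Of the 15, 10 lay below 0, beside 7147 of the 12670 genes. Their median over the 15 was -0.28, beside -0.05 over all genes. This comparison shares the RWPE1-ERG value with the one above, so a value high or low in that line enters both.

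RWPE1-ERG+mAKT against RWPE1-mAKT put 1 of the 15 past 2-fold, with 4.35% of all genes past it (3.00% higher, 1.35% lower), and against RWPE1-Vector it also put 1 of 15 past, with 5.82% of all genes past it (3.96% higher, 1.85% lower). In both the gene was COL17A1, at -1.14 and -1.45 on the log2 scale. COL5A1 at 0.79 and COL16A1 at 0.48 were the highest ratios over RWPE1-mAKT. The medians over the 15 were 0.11 and -0.01, beside -0.08 and -0.06 over all genes.

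**Figure D2:**
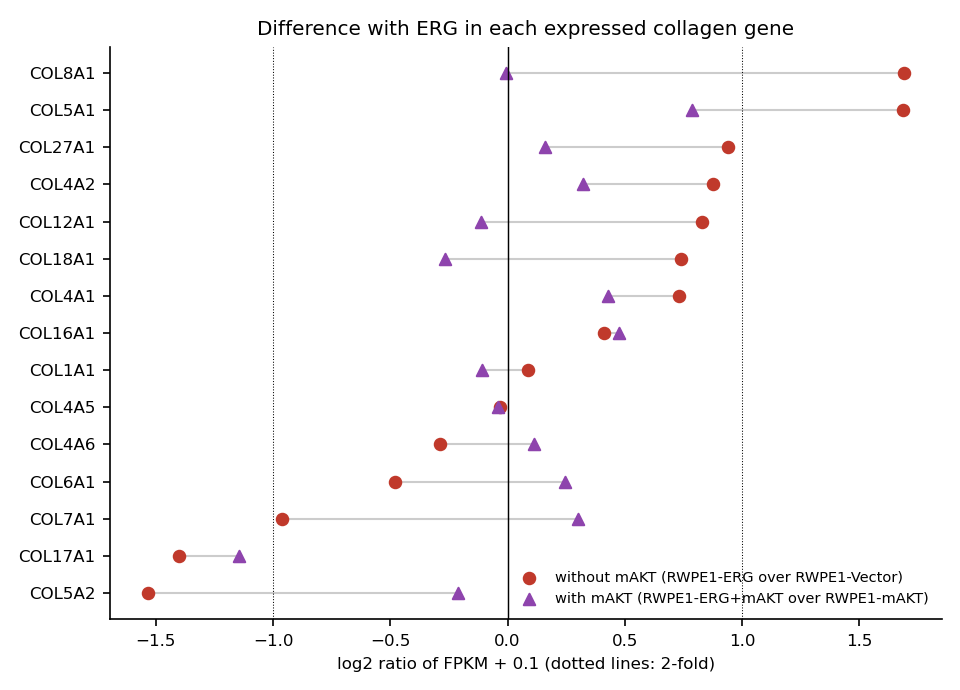
Log2 ratio with ERG for each of the 15 expressed collagen genes, without mAKT (circles, RWPE1-ERG over RWPE1-Vector) and with mAKT (triangles, RWPE1-ERG+mAKT over RWPE1-mAKT). COL17A1 is past the dotted 2-fold line in both, while COL8A1 goes from 1.69 without mAKT to -0.01 with it and COL7A1 from -0.96 to 0.30.

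The log2 ratio with ERG was then set beside itself with and without mAKT. For 4 of the 15 genes these log2 ratios differed by at least 1, where 6.61% of all genes compared did so. The lines with mAKT also differed in AKT1, at 156.3 FPKM in RWPE1-mAKT and 281.0 in RWPE1-ERG+mAKT, and the part of this was not tested. COL8A1 went from 1.69 without mAKT to -0.01 with it, a difference of -1.70. COL7A1 went from -0.96 to 0.30, a difference of 1.26. COL5A2 went from -1.53 to -0.21, a difference of 1.32, and the 4 FPKM of COL5A2, 0.747 to 2.35, were low. COL18A1 went from 0.74 to -0.27, a difference of -1.01. COL17A1, in contrast, differed by 0.26, COL16A1 by 0.07 and COL4A5 by -0.01.

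Other genes of the collagen pathway, for folding and hydroxylation, procollagen processing, cross-linking and collagen receptors, were taken as a list of 41, of which 28 reached 1 FPKM. In RWPE1-ERG over RWPE1-Vector 3 of the 28 were past 2-fold, all higher, beside 4.95% of all genes compared. PLOD2, a lysyl hydroxylase that shapes collagen cross-links, measured 17.8, 41.7, 14.4 and 18.4 FPKM across the 4 lines, again in that order. LOXL1, a lysyl oxidase that cross-links elastin and collagen, measured 1.56, 6.29, 1.66 and 2.36 FPKM. LOXL2, another lysyl oxidase, measured 4.59, 10.8, 4.63 and 4.15 FPKM. LOX measured 4.68, 6.96, 2.40 and 3.04 FPKM. Over RWPE1-Vector, LOX was 1.48-fold and LOXL3 1.61-fold higher in RWPE1-ERG, within 2-fold. In RWPE1-ERG+mAKT over RWPE1-ERG, LOX, LOXL1 and LOXL2 were past 2-fold lower, beside 3.65% of all genes.

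Of 16 hydroxylases and folding factors at 1 FPKM or more, 1 was past 2-fold in RWPE1-ERG over RWPE1-Vector, PLOD2, beside 6.83% of all genes. In RWPE1-ERG+mAKT over RWPE1-ERG 2 were past it, beside 6.64%, PLOD2 lower and P3H3 higher at 1.01 on the log2 scale. There 12 of 16 lay below 0 with a median of -0.26, beside 7147 of the 12670 genes and a median of -0.05. In RWPE1-ERG+mAKT over RWPE1-Vector 14 of 16 lay below 0 with a median of -0.18, beside 7600 of the 12670 genes and a median of -0.06. PPIB, a prolyl isomerase of the endoplasmic reticulum, was the highest of them at 335.9 to 429.9 FPKM. SERPINH1, the collagen chaperone HSP47, ran from 105.2 to 138.6 FPKM. BMP1, the procollagen C-proteinase, ran from 12.8 to 16.1 FPKM, while the N-proteinases ADAMTS2, ADAMTS3 and ADAMTS14 were low, at 0.0625 FPKM or below. Of the receptors, ITGB1 ran from 150.2 to 208.8 FPKM and DDR1 from 75.2 to 94.2, with 0 of 5 past 2-fold in each of the 5 comparisons.

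H3K27me3 was given as lists of regions called on DNA pooled from 3 ChIPs, 1 list per line, so no replicate value exists and counts of genes are descriptions. The lists covered 241.7 Mb in the Vector line, 138.4 Mb in the ERG line and 224.0 Mb in the ERG S96E line. They rest on 19444504, 16513053 and 26454542 ChIP reads and on a loose limit, since only 29 of 492265, 39 of 228233 and 3413 of 252784 regions had a q-value of at most 0.01. A gene start was called touched when a region overlapped by at least 1 base the 2 kb window centred on it. All 44 collagen genes were placed on the GRCh37 genome by their GENCODE start.

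A gene was called silent when it was below 0.1 FPKM in both RWPE1-Vector and RWPE1-ERG, which held for 20 collagen genes. Their starts were touched in 13 of 20 in the Vector line, 14 of 20 in the ERG line and 16 of 20 in the ERG S96E line. The shares over all 8350 silent genes were 50.1%, 36.7% and 48.1%, and over the 5406 that code for protein they were 56.3%, 44.5% and 57.5%. In all 3 lists together 12 of 20 silent collagen starts were touched, beside 34.4% of silent protein-coding genes. The silent members of the beaded filament class (COL6A3, COL6A5 and COL6A6) and of type IV (COL4A3 and COL4A4) were touched in all 3 lists.

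The starts of COL15A1 and COL25A1 were covered in full in all 3 lists. COL15A1, a multiplexin of vessel and muscle basement membranes listed at 0 FPKM in all 4 lines, was one. The other was COL25A1, a transmembrane collagen of neurons, with at most 0.0035 FPKM. Of all 8350 silent genes, 0.371% had the whole window covered in all 3 lists. The region over the COL15A1 start was 6445 bases wide in the Vector line, 6709 in the ERG line and 8242 in the ERG S96E line, with fold enrichment of 2.42, 2.77 and 5.35. The region over the COL25A1 start was 4634, 6569 and 6978 bases wide, with fold enrichment of 2.15, 3.16 and 5.59. Wider regions lay over other starts in the ERG S96E line, the widest 10196 bases at COL2A1.

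The ERG S96E list covered whole windows more often. It covered the entire window of 12 of the 20 silent collagen genes, against 2 in the Vector line and 2 in the ERG line. Over all silent genes it covered 1373 whole windows, against 48 and 205, so the collagen genes shared a difference between the lists. COL6A3, the largest chain of type VI collagen, was covered over 36.5%, 33.4% and 100% of the window and over 37.4%, 36.1% and 64.6% of the gene body. COL2A1, the collagen of cartilage, was covered over 34.4%, 69.3% and 100% of the window. COL20A1, a FACIT collagen, had the most cover of its body, 47.2%, 37.1% and 75.5%. The control reads also differed between the lines, and the part of read depth in these widths was not tested.

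The starts of the 15 expressed members were touched in 5, 3 and 6 in the Vector, ERG and ERG S96E lines, beside 8.82%, 3.31% and 7.26% of all genes with at least 1 FPKM. COL17A1, COL7A1, COL4A1, COL4A2, COL4A5, COL4A6 and COL18A1 were touched at the start in none of the 3 lists, which is 7 of the 15 beside 87.1% of those genes. Another 6 were touched in 1 or 2 lists. COL1A1 and COL27A1 were touched in all 3, beside 1.97% of all expressed genes. At COL27A1 the region over the start had fold enrichment of 2.41, 3.09 and 6.60 in the Vector, ERG and ERG S96E lines, although the gene measured 2.31 FPKM in RWPE1-Vector and 4.52 in RWPE1-ERG. At COL5A2 only the ERG S96E list touched the start, over 59.9% of the window. RNA of the ERG S96E line was not analysed here. COL13A1, a transmembrane collagen at 0.116 FPKM in RWPE1-Vector and 0.473 in RWPE1-ERG, went the other way at its start only. Its window had 29.8% and 19.5% cover in the Vector and ERG lines and none in the ERG S96E line. Its gene body was covered over 27.3%, 14.2% and 27.8% in the Vector, ERG and ERG S96E lines.

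**Figure D3:**
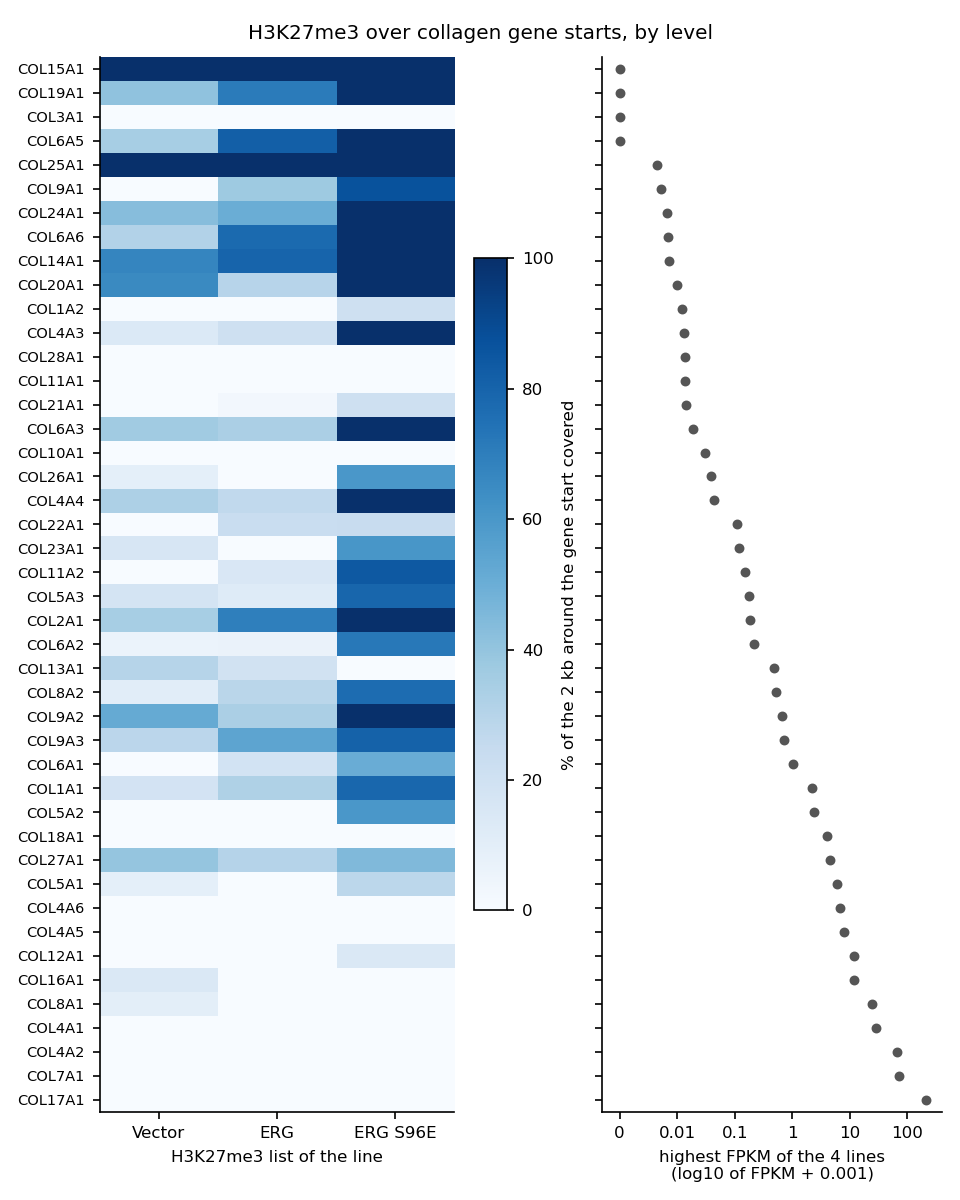
Left, percent of the 2 kb around each collagen gene start covered by H3K27me3 regions in the Vector, ERG and ERG S96E lines, with 1 row per gene ordered by its highest FPKM. Right, that FPKM on a log scale. COL15A1 and COL25A1 are covered in full in all 3 lines, COL3A1, COL10A1, COL11A1 and COL28A1 are bare among the silent genes, and the 4 highest genes are bare.

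Silence and H3K27me3 did not go together at 4 silent members, COL3A1, COL10A1, COL11A1 and COL28A1, which no list touched at the start. COL10A1 encodes the collagen of hypertrophic cartilage and COL11A1 a fibrillar collagen of cartilage. The same held for 27.8% of silent protein-coding genes. These starts had no ATAC-seq peak in the 3 lines, which held for 76.7% of silent protein-coding genes. Their base composition differed from that of the touched starts. The CG pairs found over those expected from the C and G content of the 2 kb window had a median of 0.230 in the 4 bare starts, and of 0.621 in the 12 touched in all lists. COL28A1 had 10 CG pairs in its window, COL10A1 had 12, COL3A1 had 14 and COL11A1 had 58, while the 12 had 43 to 135. Of all silent protein-coding genes with a ratio of at least 0.6, 65.6% were touched in all 3 lists, against 24.4% of those below 0.6. The silent collagen genes gave 7 of 8 and 5 of 12 in the same 2 ranges. COL20A1, with a ratio of 0.281, and COL6A3, with 0.373, were touched in all 3 lists at low ratios.

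The stretches below show that contrast. They are 200 bases upstream of the start on the coding strand, from the GRCh37 genome, with every CG pair in capitals. COL15A1 and COL25A1 are the starts covered in full in all lists, and their stretches begin 394 and 294 bases before the start because annotated untranslated bases lie nearer. COL28A1 is bare and silent, and COL17A1 is bare and the most abundant. The COL15A1 stretch lies at chr9:101705795-101705994, COL25A1 at chr4:110223909-110224108, COL28A1 at chr7:7575505-7575704 and COL17A1 at chr10:105845639-105845838.
COL15A1: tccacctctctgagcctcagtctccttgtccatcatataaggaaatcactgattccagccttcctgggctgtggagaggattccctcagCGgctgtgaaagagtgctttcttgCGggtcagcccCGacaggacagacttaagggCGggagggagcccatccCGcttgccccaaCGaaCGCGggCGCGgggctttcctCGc
COL25A1: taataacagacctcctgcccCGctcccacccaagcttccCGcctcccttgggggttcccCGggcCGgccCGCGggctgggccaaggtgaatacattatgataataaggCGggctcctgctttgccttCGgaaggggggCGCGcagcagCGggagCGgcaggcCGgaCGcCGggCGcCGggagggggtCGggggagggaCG
COL28A1: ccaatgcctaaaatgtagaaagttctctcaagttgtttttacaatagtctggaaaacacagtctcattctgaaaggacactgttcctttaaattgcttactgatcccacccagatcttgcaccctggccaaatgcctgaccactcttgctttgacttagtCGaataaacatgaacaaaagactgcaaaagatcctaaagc
COL17A1: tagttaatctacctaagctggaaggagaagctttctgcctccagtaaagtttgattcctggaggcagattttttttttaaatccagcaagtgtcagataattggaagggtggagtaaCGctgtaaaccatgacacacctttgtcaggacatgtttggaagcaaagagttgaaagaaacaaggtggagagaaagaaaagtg
The COL15A1 stretch holds 11 CG pairs and the COL25A1 stretch 19, while COL28A1 and COL17A1 hold 1 each. Over all 22076 placed genes the 200 bases before the start hold a median of 13 CG pairs, and 94.6% hold at least 1. Over the 5406 silent protein-coding genes the median is 4, with quartiles of 2 and 14. Bare starts of expressed members ran from COL17A1 with a ratio of 0.142 to COL4A1 with 0.832.

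**Figure D4:**
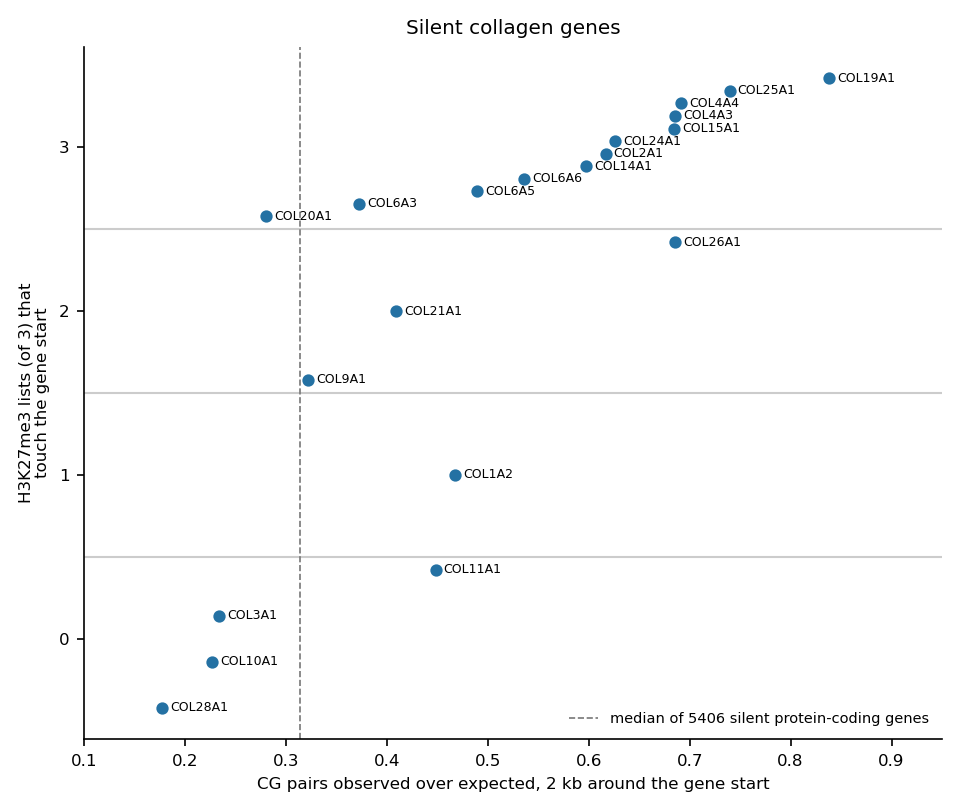
CG pairs found over those expected in the 2 kb around the start (x axis) for the 20 silent collagen genes, by how many of the 3 H3K27me3 lists touch the start (y axis, with grey lines between the counts; within a band the height only keeps labels apart). The dashed line is the median of all silent protein-coding genes. The bare starts of COL3A1, COL10A1 and COL28A1 lie left of it, and those touched in all 3 lists run from 0.281 to 0.838.

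ATAC-seq peaks lay over the starts of 14 of the 15 expressed collagen genes in RWPE1-ERG, 13 in RWPE1-mAKT and 14 in RWPE1-ERG+mAKT, beside 91.1%, 90.7% and 87.6% of all expressed genes. COL5A2 had no peak at its start in the 3 lines, and COL16A1 had none in RWPE1-mAKT. Of all 44 members, 30, 27 and 20 starts were open, beside 60.1%, 59.0% and 54.9% of all placed genes. Cut to the 33000 peaks of lowest p-value, the lists left 12, 12 and 17 collagen starts open, beside 46.0%, 45.8% and 48.4% of all genes. Of the 20 silent members 9, 8 and 5 had an open start in the full lists, beside 18.2%, 16.7% and 12.1% of silent genes. The full lists hold 63354, 57999 and 42081 peaks, and the counts of silent members were not taken at equal length. The shared COL4A3 and COL4A4 start was open in all 3 lines although neither gene passed 0.0421 FPKM, with 56.6% of the window in peaks in RWPE1-ERG, and it was touched by H3K27me3 in all 3 lists. COL24A1, a fibrillar collagen below 0.1 FPKM in each line, was open only in the full list of RWPE1-ERG, the longest, over 50.8% of the window.

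ERG and ERK2 peaks were counted within a gene or 20 kb of it. Collagen genes are long, with a median span of 144.8 kb against 22.5 kb over all placed genes, which gives them more room for peaks. In RWPE1-ERG+mAKT, 21 of 44 collagen genes had an ERG peak, beside 27.8% of all genes. Among the 15 expressed members 8 did, beside 32.0% of all placed genes with at least 1 FPKM and 60.1% of the 1191 of these whose span reached that median. The 15 were not cut by span. Their median span was 157.0 kb, against 220.0 kb for the 1191, so that share is not matched to them. In VCaP cells 8 of 44 had an ERG peak, beside 18.8%. ERK2 peaks lay near 38 of 44 in the Vector line and 9 of 44 in the ERG line, beside 66.5% and 22.2% of all genes. The Vector list holds 41276 peaks and the ERG list 5721. With the Vector list cut to as many peaks as the ERG list, it gave 13 of 44, beside 21.5% of all genes. Most of these peaks were weak. At a q-value of at most 0.01, 1 collagen gene kept an ERG peak in RWPE1-ERG+mAKT, 3 kept one in VCaP, and 1 and 0 kept an ERK2 peak in the Vector and ERG lines, beside 1.85%, 5.70%, 1.70% and 1.20% of all genes. The one in RWPE1-ERG+mAKT lay in an intron of COL26A1 at chr7:101190958-101191146, with a q-value of 1.19e-90, and COL26A1 stayed at or below 0.0382 FPKM in the 4 lines.

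COL17A1, the 1 member past 2-fold lower with ERG both without and with mAKT, had no ERG peak of either list and no ERK2 peak of the ERG line within 20 kb, and 3 ERK2 peaks of the Vector line with fold enrichment up to 3.86. COL7A1 had an ERK2 peak in the ERG line at -3.96 kb from its start, chr3:48636585-48636847 over an exon of UQCRC1, with fold enrichment of 3.54. A Vector peak overlapped it, and the site was open in all 3 ATAC lists. COL5A1 had the most ERK2 peaks of any member in both lines, 13 in the Vector line with fold enrichment up to 3.69 and 6 in the ERG line with fold enrichment up to 4.04, none of the 6 with a q-value below 0.323. The one at chr9:137561874-137562069, in an intron, also lay in the Vector list and in all 3 ATAC lists. COL8A1 had 1 ERG peak, at -10.7 kb from its start, chr3:99346652-99346856, with fold enrichment of 3.53 and a q-value of 0.701, and no ATAC peak overlapped it.

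The sequences below come from a COL4A2 site where the ERG, ERK2 and ATAC lists met and from the ERG peak of COL8A1, the member that differed most between lines. The COL4A2 site lay 217.5 kb after its start, 11.5 kb past its end and within an intron of RAB20, a gene on the other strand. RAB20 measured 6.98 FPKM in RWPE1-Vector, 12.3 in RWPE1-ERG, 8.28 in RWPE1-mAKT and 7.98 in RWPE1-ERG+mAKT, so it was also highest in RWPE1-ERG, and to which gene the site belongs cannot be told. An ERG peak of RWPE1-ERG+mAKT lay there at chr13:111176863-111177024 with fold enrichment of 2.94, and an ERG peak of VCaP cells at chr13:111176419-111177261 with fold enrichment of 5.72, which also reached an exon of RAB20. An ERK2 peak of the ERG line lay at chr13:111177017-111177201 with fold enrichment of 3.70, and the longer ERK2 list of the Vector line had none within 1500 bases of its middle. The site was open in RWPE1-ERG, with fold enrichment of 5.24, and in RWPE1-ERG+mAKT, with 4.91, but had no peak in RWPE1-mAKT. No H3K27me3 list reached it. The first ERG peak and the ERK2 peak were each listed with a −log10 q-value of 0, the weakest value possible. The VCaP peak and both ATAC peaks passed a q-value of 0.01.
The first 2 sequences are that ERG peak and that ERK2 peak, on the plus strand of GRCh37, with GGAA or its complement TTCC, the core that ETS factors such as ERG bind, in capitals, and the third is the COL8A1 peak with CAGGAAAT in capitals.
COL4A2 distal ERG peak: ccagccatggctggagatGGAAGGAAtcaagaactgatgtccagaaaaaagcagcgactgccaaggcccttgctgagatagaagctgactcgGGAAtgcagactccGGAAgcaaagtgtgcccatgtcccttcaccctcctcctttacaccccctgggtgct
COL4A2 distal ERK2 peak: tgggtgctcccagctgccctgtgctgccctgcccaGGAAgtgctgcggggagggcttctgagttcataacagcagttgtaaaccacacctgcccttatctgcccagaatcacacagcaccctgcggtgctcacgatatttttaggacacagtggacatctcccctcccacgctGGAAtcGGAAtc
COL8A1 upstream ERG peak: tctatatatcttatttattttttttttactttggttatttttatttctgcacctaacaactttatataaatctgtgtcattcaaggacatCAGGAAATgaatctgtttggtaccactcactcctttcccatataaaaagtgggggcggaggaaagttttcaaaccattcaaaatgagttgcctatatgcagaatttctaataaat
Counted on both strands, the first holds GGAA 4 times and the second 3 times, once within AGGAAGTG. Of all ERG peaks of that list, taken as 162 bases around the middle, 82.3% hold GGAA, and of all ERK2 peaks of the ERG line, taken as 185 bases, 86.0% do and 2.05% hold AGGAAGTG. The COL8A1 peak holds GGAA 3 times, and 88.0% of all ERG peaks of the list taken as 205 bases hold it. CAGGAAAT, a longer word around that core, occurs once in the COL8A1 peak and in 5.12% of those ERG peaks. Whether CAGGAAAT matters for binding was not tested.

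**Figure D5:**
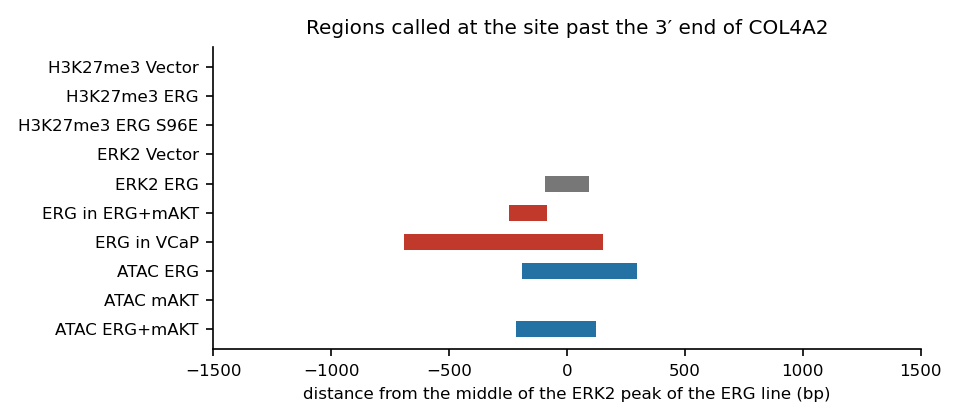
Regions of each list around the site past the 3′ end of COL4A2, as bars against the distance in bases from the middle of the ERK2 peak of the ERG line. The site is shown because lists met there, and ERG ChIP-seq came only from cells with ERG. The ERG region of RWPE1-ERG+mAKT, from -246 to -85, meets the ERK2 region, from -92 to 92, only at its edge. The VCaP ERG region and the ATAC regions of RWPE1-ERG and RWPE1-ERG+mAKT span 0. The Vector ERK2 list, the mAKT ATAC list and the H3K27me3 lists have no bar within 1500 bases.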

How the data were processed

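RNA was poly(A)-selected, aligned by the authors with TopHat2 and compared with Cuffdiff, and they deposited 1 FPKM per gene and line, pooled over 3 libraries. Their columns of log2 fold change, test statistic, p-value and q-value for each pair of lines were not used. ChIP-seq and ATAC-seq reads were mapped by the authors with Bowtie2 on hg19. After duplicate removal with Picard they called regions with MACS2, and the deposited lists give each region's pileup signal, fold enrichment (a ratio to control), −log10 p-value and −log10 q-value. Per the submitters' processing notes, bedtools was also used. The header of the ERK2 lists names a p-value limit of 0.01. Whether reads were counted by strand is not given in the sources used here.

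The 12 RNA libraries and 10 region lists were grouped by their labels. 2 deposited lists hold regions that their labels do not describe and were not used, and 1 row of the VCaP list whose length did not match its coordinates was left out. Of 26255 entries, 22076 were placed by symbol on GENCODE release 44 mapped to GRCh37, with the start of the canonical transcript. Ratios used log2(FPKM + 0.1) and genes with FPKM of at least 1 in any line, with a threshold of 2-fold. An overlap meant at least 1 base.

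Every member with FPKM of at least 1 in any line was named with its 4 values, silent members by class and cover, and of the pathway genes those past 2-fold whose higher line reached an FPKM of 5, plus the highest of each group and others named after their values were seen. The members and lists were chosen with earlier results of these data known. Alternatives changed the pseudocount, filter, fold, centring, region limits and windows. The scripts were tested on simulated data. Python 3.11.15, pandas 2.3.3, numpy 2.4.6, pysam 0.24.0 and samtools 1.23.1 were used. A marker gene and an upstream sequence are not reported here.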

Additional observations from a re-analysis of the deposited data

Results flagged for a closer look

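For 3 expressed collagen genes the log2 ratio with ERG had opposite signs without and with mAKT and differed by at least 1, although for COL8A1 the ratio with mAKT lay close to 0 and was 0.07 once centred on the median of all genes. COL8A1 differed by -1.70 (1.69 without mAKT, -0.01 with it), COL7A1 by 1.26 (-0.96 and 0.30) and COL18A1 by -1.01 (0.74 and -0.27). With a pseudocount of 1 FPKM the differences were -1.58, 1.24 and -0.78. With 1 pooled value per line these differences were not tested.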

How the results depend on the processing

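Counts of members past 2-fold, of silent starts with H3K27me3, of open starts and of members near peaks were recomputed under the alternatives, and the difference with and without mAKT under a pseudocount of 1 FPKM. Counts of whole windows, of expressed starts with H3K27me3, of open starts among silent or expressed members, by CG ratio and of pathway genes were not recomputed. Of the recomputed counts, 60 stayed within 1.5 times the reported one while 25 did not. A fold of 1.5 gave 10 collagen genes for RWPE1-ERG over RWPE1-Vector, 3 for RWPE1-mAKT over RWPE1-Vector, 9 for RWPE1-ERG+mAKT over RWPE1-ERG, 2 over RWPE1-mAKT and 3 over RWPE1-Vector, beside 14.3%, 6.22%, 15.2%, 9.66% and 12.3% of all genes. A fold of 3 gave 2 for RWPE1-ERG over RWPE1-Vector and 1, 0 and 0 for RWPE1-ERG+mAKT over RWPE1-ERG, RWPE1-mAKT and RWPE1-Vector, beside 3.13%, 2.94%, 2.00% and 2.94% of all genes. For RWPE1-ERG+mAKT over RWPE1-ERG, a pseudocount of 1 FPKM gave 2 (4.49% of all genes) and no filter on low values gave 7 (4.92%). With a pseudocount of 1 FPKM the ratio with ERG differed by at least 1 with and without mAKT for 2 genes, not 4. The share of all genes was not recomputed at that setting. Of the ratios of single genes 239 moved by less than 1.5-fold, and 1, COL5A2 in RWPE1-ERG over RWPE1-Vector, moved to -0.94. No called ratio changed sign.

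A q-value limit of 0.01 left 0, 0 and 9 of 20 silent collagen starts touched by H3K27me3 in the Vector, ERG and ERG S96E lines, beside 0.0120%, 0.156% and 16.6% of all silent genes. With silent set as below 1 FPKM in RWPE1-Vector and RWPE1-ERG, 20 and 22 of 29 were touched in the Vector and ERG lines, beside 46.4% and 34.0%. The q-value limit left 1 and 0 collagen genes with an ERK2 peak in the Vector and ERG lines, 1 with an ERG peak in RWPE1-ERG+mAKT and 3 in VCaP. Peaks within 50 kb gave 15 of 44 for ERK2 in the ERG line, beside 30.9% of all genes. An alternative chosen after seeing the data, the Vector ERK2 list cut to the length of the ERG list, gave 13. The 33000 strongest ATAC peaks left 12 open collagen starts in RWPE1-ERG and 12 in RWPE1-mAKT. The causes were not tested.

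Values pooled over libraries give no error, so leaving out a library was not possible. No paired analysis was possible because the deposited columns carry no replicate numbers. ChIP-seq lists without replicates and with loose limits do not show that a region without a call lacks the mark or factor.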
